A study of Homo sapiens with 6 samples.

Results

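The nuclear genes of respiratory complexes II, III, IV and V were followed in cells that had received a microRNA mimic. Members were taken by gene name: SDHA, SDHB, SDHC and SDHD for complex II, names beginning with UQCR together with CYC1 for complex III, names beginning with COX4 to COX8 for complex IV, and names beginning with ATP5 for complex V. Names ending in P and digits, which mark pseudogenes, and names with a hyphen were left out. This gave 51 of the 58174 genes in the table, of which 5 belonged to complex II, 10 to complex III, 17 to complex IV and 19 to complex V. Of the 51, 42 reached a mean of 1 FPKM over the 6 samples and were tested.

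RNA was sequenced from cells that carry the label Huh-7, the name of an established human line of hepatocellular carcinoma, at 48 h after lipid transfection. The tested condition was transfection with miR-27a-3p mimics (mimic samples 1, 2 and 3), and the comparison was transfection with a negative control (NC samples 1, 2 and 3). Both groups had the same medium, serum and transfection reagent. Whether the 3 samples of 1 group were grown as separate cultures is not stated on the labels, so the p-values below reflect the variation among these samples alone, and that variation may be technical.

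The respiratory chain passes electrons from fuel molecules to oxygen across the inner mitochondrial membrane and pumps protons as it does so. Complex II, which is also the succinate dehydrogenase of the citric acid cycle, feeds electrons to coenzyme Q without pumping, complex III moves them to cytochrome c, complex IV hands them to oxygen, and complex V lets the protons flow back to make ATP. Subunits of complexes III, IV and V come from both the nuclear and the mitochondrial genome, whereas all those of complex II are nuclear, and in liver this machinery supplies the ATP for gluconeogenesis, urea synthesis and transport.

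Values are FPKM, fragments scaled to transcript length and to the library's total, as the authors deposited them, and are relative within a sample. Between 13007 and 13250 genes reached 1 FPKM in mimic samples, against 15109 to 15494 in NC samples. Mitochondrially encoded genes took 14.6%, 24.3% and 38.9% of the summed FPKM in mimic samples 1, 2 and 3, and 16.9%, 18.4% and 32.8% in NC samples 1, 2 and 3. The low FPKM values implied 25127800 to 31041200 fragments in mimic samples and 16984300 to 21147200 in NC samples, and reads per gene were not recovered. The liver identity named on the labels was not seen in defining hepatocyte markers: TTR, APOH and APOB were listed at 0 in all 6 samples, the highest value of ALB was 0.0110 FPKM and that of AFP 0.0237 FPKM. Of the 13 markers searched, 10 stayed below 1 FPKM in every sample, while the epithelial keratin KRT8 was at 442 to 607 FPKM in mimic samples and 229.5 to 256 FPKM in NC samples. Summed markers of endothelium (0.512 to 0.823 in mimic, 1.42 to 2.91 FPKM in NC), leukocytes (0.348 to 0.503 in mimic, 0.848 to 1.55 FPKM in NC) and muscle (13.7 to 17.4 in mimic, 23.0 to 30.2 FPKM in NC) were lower in mimic samples, as were those of fibroblasts (6.81 to 9.61 in mimic, 17.0 to 17.8 FPKM in NC), and their part in the results was not tested. Below 1 FPKM in every sample were 3 of 4 endothelial, 3 of 4 leukocyte, 4 of 6 muscle and 4 of 5 fibroblast markers, and KDR, an endothelial receptor, was listed at 0 in all samples.

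To show what the transfected microRNA could pair with among these genes, its mature sequence from RefSeq (GRCh38.p14, chr19:13836447-13836467, minus strand) is printed with the seed, its bases 2 to 8, in capitals.

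hsa-miR-27a-3p: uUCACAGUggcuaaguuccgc

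Matches to this seed were searched in the longest 3′ UTR among each gene's protein-coding transcripts in GENCODE 29 (GRCh38), as ACTGTGAA (8mer), ACTGTGA (7mer-m8) or CTGTGAA (7mer-A1). Of the 42 tested members 5 held a match, or 11.9%, against 3310 of 11465 tested genes searched, or 28.9%. None of the 42 held an 8mer, which was present in 751 of the 11465. The 3′ UTRs of the members were short, with a median of 416.5 bases against 1328 bases. The 5 windows are given 5′ to 3′ on the transcribed strand, with the match in capitals.

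COX8A, chr11:63976333-63976359, plus strand: tgtccctcacACTGTGAcctgaccagc

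UQCR11, chr19:1597994-1598020, minus strand: tggcttggttACTGTGActgtagctgg

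ATP5MC3, chr2:175178211-175178237, minus strand: tgtgtatcttACTGTGActccgaaaac

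DMAC2L, chr14:50331419-50331445, plus strand: taattttgtaACTGTGAtctacattag

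UQCRFS1, chr19:29205704-29205730, minus strand: ttttaccattCTGTGAAaacaaaatcc

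COX8A, UQCR11 and ATP5MC3 were among the genes that rose in mimic samples, DMAC2L was among those that fell, and UQCRFS1 did not pass the test. The median log2 fold change was 0.52 for the 5 members with a match and -0.03 for the 37 without, against -0.27 and -0.13 for all tested genes with and without a match. A match is a run of letters and not a measured binding site.

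Of the 42 tested members, 10 rose and 4 fell in mimic samples, and 28 did not pass the test (limma on log2(FPKM + 0.5), Benjamini-Hochberg adjusted p below 0.05 over all 14439 genes tested). Over all tested genes 12.0% rose and 39.6% fell, beside 23.8% and 9.52% of the members. The genes that rose were SDHA and SDHB of complex II, CYC1 and UQCR11 of complex III, COX8A of complex IV, and ATP5PB, ATP5MC1, ATP5F1D, DMAC2 and ATP5MC3 of the complex V group. Those that fell were UQCRHL, COX7B, ATP5F1C and DMAC2L. In bulk RNA fewer cells of a type and less RNA per cell cannot be told apart.

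The median log2 fold change was 0.04 over the members, with quartiles of -0.28 and 0.53, and -0.29 over all genes tested, with quartiles of -0.82 and 0.17. Members thus lay around 0 on the deposited scale and mostly above the median gene. When the samples were rescaled by the median of ratios over the tested genes, a scaling added after the data had been seen, the median of all genes was 0.01 and that of the members 0.37. On that scale 19 members rose and 2 fell (45.2% and 4.76%), against 26.9% and 27.4% of all genes. With quantile normalization 12 members rose and 4 fell (28.6% and 9.52%, median -0.01), against 24.6% and 23.3% of all genes (median 0.03). The 10 genes that rose on the deposited scale were called higher under both rescalings as well.

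**Figure D1:**
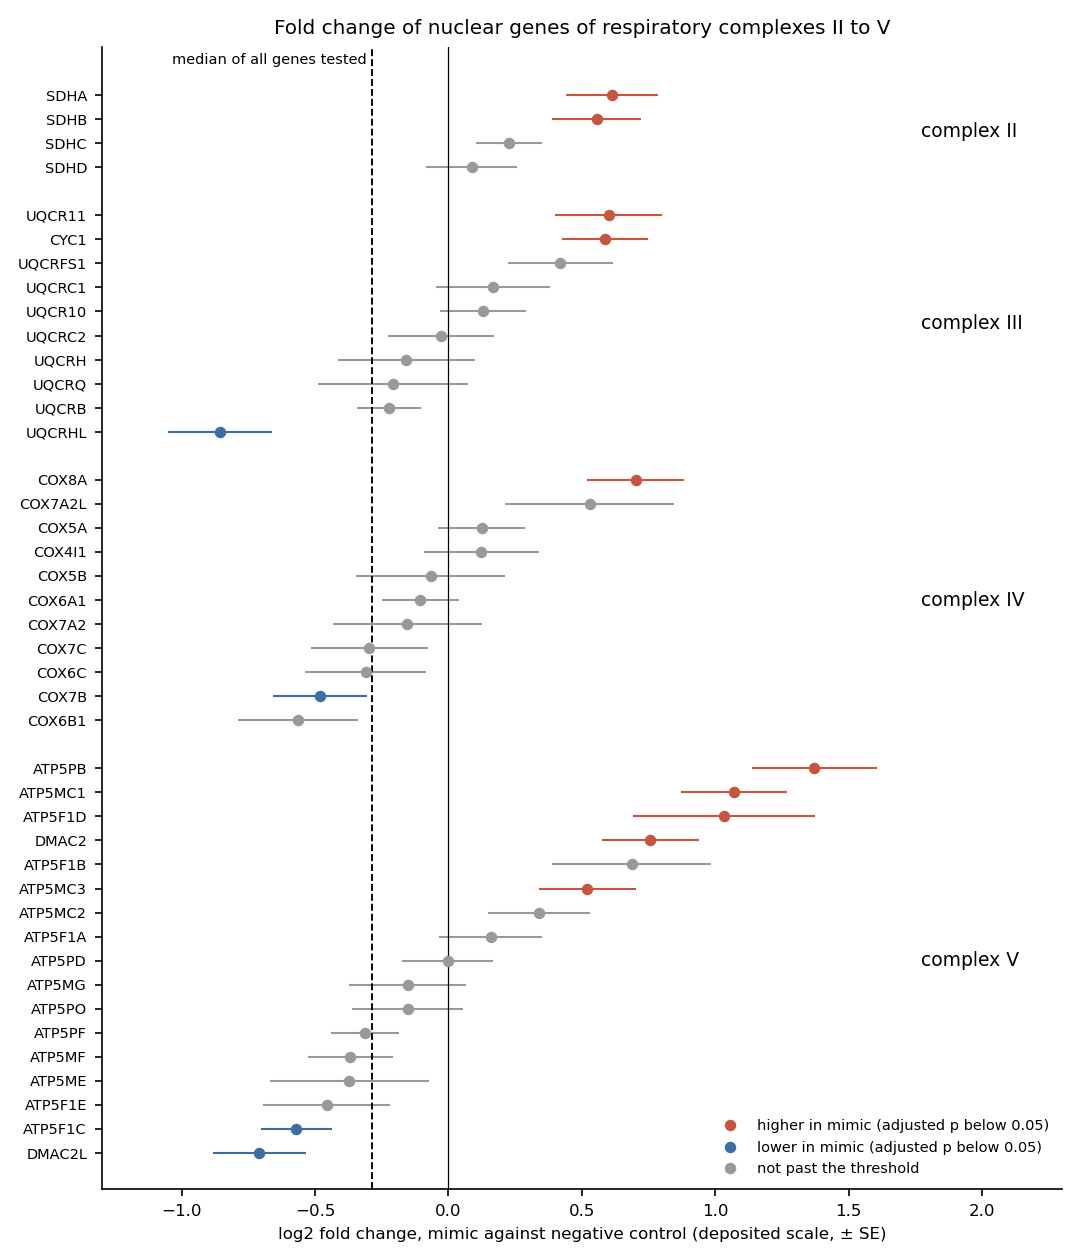
Log2 fold change of each of the 42 tested members, mimic against negative control, on the deposited scale, with bars of 1 SE, grouped by complex. The dashed line marks the median of all tested genes at -0.29; the members range from UQCRHL at -0.86 to ATP5PB at 1.37, and the 4 genes of complex II all lie above 0.

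The members were expressed above the typical gene, with a median of 81.2 FPKM over the members and 8.59 FPKM over all tested genes. Among genes whose mean reached 5 FPKM, 15.2% rose and 30.8% fell, and 40 members tested there gave 10 higher and 1 lower. The 3 mimic samples lay wholly above the 3 NC samples in 12 members and wholly below in 7, and the groups overlapped in 23. Over all tested genes the groups stood apart upward in 16.2% and downward in 44.3%, or 60.5% in all.

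In complex II, both catalytic subunits rose in mimic samples, and the membrane anchors did not pass the test on the deposited scale. On that scale 12.0% of all tested genes rose and 39.6% fell. SDHA (ENSG00000073578, chr5:218241-256700, hg38) encodes the flavoprotein that oxidises succinate, and stood at 126, 111 and 101 FPKM in mimic samples 1, 2 and 3, against 74.4, 87.5 and 60.3 FPKM in NC samples 1, 2 and 3. Every mimic sample was above every NC sample, and the log2 fold change was 0.61 (SE 0.17, limma adjusted p = 0.0170). SDHB, the iron-sulfur subunit that carries the electrons onward, stood at 101, 89.7 and 79.8 FPKM in mimic samples, against 66.5, 67.8 and 49.95 FPKM in NC samples. The groups did not overlap there either, and NC sample 3 was the lowest in both genes (0.56, SE 0.17, limma adjusted p = 0.0224).

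SDHC and SDHD hold the enzyme in the membrane and bind coenzyme Q. SDHC was at 20.2, 17.9 and 19.8 FPKM in mimic samples and at 15.8, 17.6 and 15.8 FPKM in NC samples. Its groups stood apart by a small margin (0.23, SE 0.12, limma adjusted p = 0.161), and it was called higher after quantile normalization (0.39, adjusted p = 0.0296) and after correction for GC content and length (0.39, adjusted p = 0.0485). SDHD was at 65.7, 51.0 and 45.4 FPKM in mimic samples and at 47.5, 57.3 and 46.6 FPKM in NC samples, which overlapped (0.09, SE 0.17, limma adjusted p = 0.693). A second identifier that the table also names SDHD, ENSG00000255292, spans a longer interval on chromosome 11 and stayed between 0.0232 and 0.113 FPKM in mimic samples and between 0.127 and 0.392 FPKM in NC samples, below the level for testing. The 5 complex II entries summed to 312, 269.9 and 246 FPKM in mimic samples, against 204, 230.3 and 173 FPKM in NC samples. The median log2 fold change of the 4 tested genes was 0.39, and all 4 were called higher after rescaling over the tested genes (SDHA 0.94, SDHB 0.88, SDHC 0.54, SDHD 0.41). After that rescaling 26.9% of all tested genes were called higher and 27.4% lower. Without mimic sample 2 or NC sample 3 the adjusted p on the deposited scale was 0.0522 or 0.0536 for SDHA and 0.0655 or 0.0689 for SDHB, with log2 fold changes of at least 0.41.

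In complex III, 2 of 10 members rose and 1 fell, beside 12.0% and 39.6% of all tested genes. The median log2 fold change was 0.05. CYC1, the cytochrome that delivers electrons to cytochrome c, was at 107, 80.3 and 91.4 FPKM in mimic samples, against 70.5, 60.1 and 54.0 FPKM in NC samples. The lowest mimic sample was above the highest NC sample (0.59, SE 0.16, limma adjusted p = 0.0160). UQCR11, a small membrane subunit, was at 83.6, 62.9 and 61.6 FPKM in mimic samples, against 51.9, 51.1 and 34.5 FPKM in NC samples. Mimic sample 1 was highest and NC sample 3 lowest, with no overlap (0.60, SE 0.20, limma adjusted p = 0.0347). The call of CYC1 was lost without NC sample 2 (adjusted p = 0.0502) or NC sample 3 (0.0536), and that of UQCR11 without mimic sample 1 (0.0806), mimic sample 2 (0.0637) or NC sample 3 (0.0985). Without sample 3 of both groups neither gene was called (limma adjusted p = 0.0882 for CYC1 and 0.0789 for UQCR11). UQCR11 was also not called with no filter on low values (limma adjusted p = 0.0780).

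UQCRFS1 encodes the Rieske iron-sulfur protein, the other redox subunit described here, and was at 26.0, 18.7 and 16.5 FPKM in mimic samples and 15.9, 16.6 and 12.4 FPKM in NC samples. Mimic sample 3 lay just under NC sample 2 (0.42, SE 0.20, limma adjusted p = 0.107), and the gene was called higher after quantile normalization (0.58, adjusted p = 0.0165) and when mitochondrial genes did not count towards the total (0.44, adjusted p = 0.0367). The core proteins gave log2 fold changes of 0.17 for UQCRC1 (SE 0.21) and -0.03 for UQCRC2 (SE 0.20), and UQCR10, a small subunit, gave 0.13 (SE 0.16), with overlapping groups in each. UQCRB, a small subunit near the coenzyme Q site, was at 28.3, 28.1 and 26.3 FPKM in mimic samples and 34.1, 32.2 and 30.4 FPKM in NC samples. Its groups stood apart downward (-0.22, SE 0.12, limma adjusted p = 0.156), and after rescaling over the tested genes its value was 0.10. UQCRQ, another small subunit, gave -0.21 (SE 0.28) with overlap.

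UQCRH, the hinge protein beside cytochrome c1, had the highest mean level in complex III. It was at 357, 231 and 191 FPKM in mimic samples and 309.5, 323 and 219 FPKM in NC samples, which overlapped (-0.16, SE 0.26, limma adjusted p = 0.635). UQCRHL, a gene copy of UQCRH on the same chromosome, was at 2.04, 1.88 and 1.19 FPKM in mimic samples, against 3.37, 3.92 and 3.03 FPKM in NC samples. It fell without overlap (-0.86, SE 0.19, limma adjusted p = 0.00682), but was not called after quantile normalization (-0.23, adjusted p = 0.308). Reads could be divided between such near-identical copies, so the UQCRHL value is uncertain. After rescaling over the tested genes CYC1 (0.91), UQCR11 (0.92), UQCRFS1 (0.74) and UQCR10 (0.45) were called higher and UQCRHL (-0.59) lower.

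**Figure D2:**
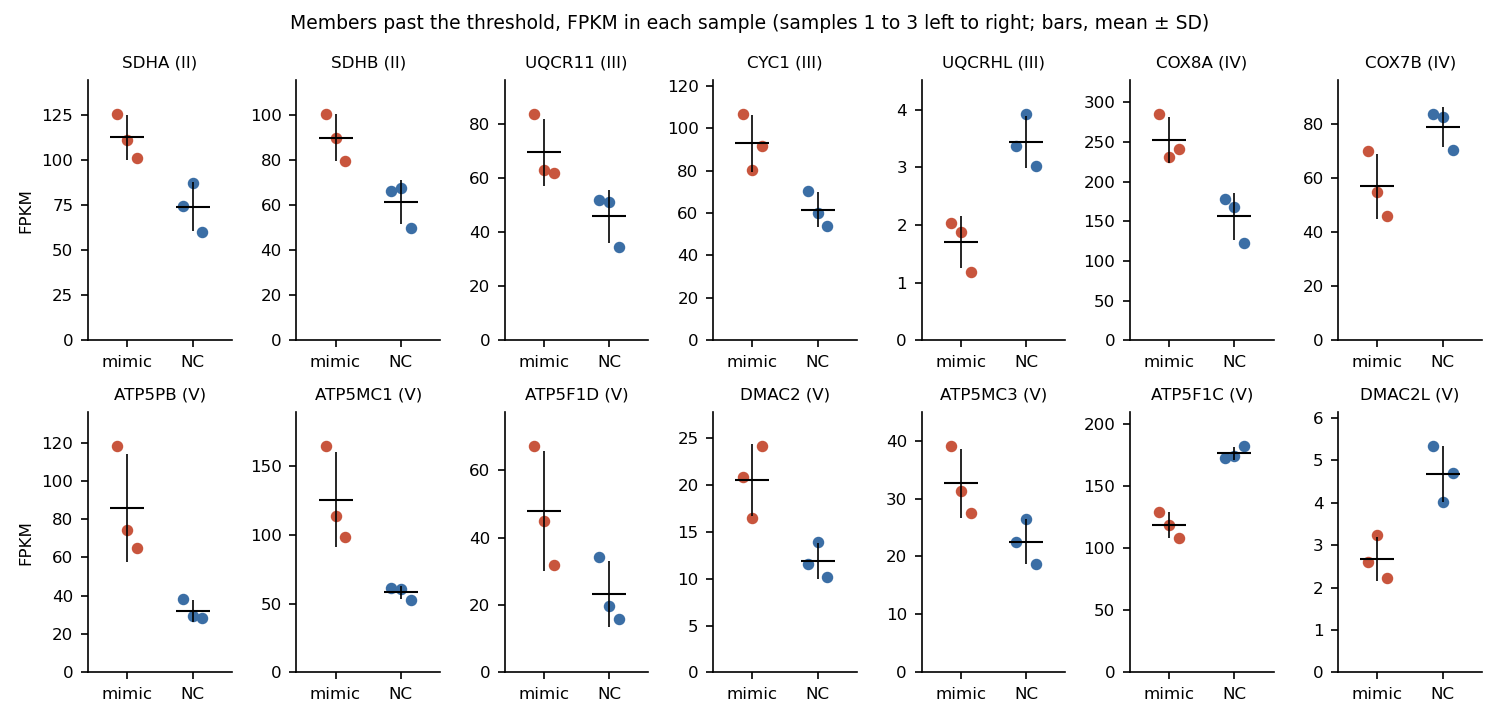
FPKM of the 14 members past the threshold in each mimic sample and each negative control (NC) sample, with the mean and SD of each group; each panel has its own axis from 0. The groups are apart in every panel except ATP5F1D, where NC sample 1 at 34.4 lies above mimic sample 3 at 31.9.

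In complex IV, 1 of 11 tested members rose and 1 fell, beside 12.0% and 39.6% of all tested genes. The median log2 fold change was -0.11. That median was -0.36 without mimic sample 1, 0.025 without mimic sample 3, 0.22 after rescaling over the tested genes and 0.090 after correction for GC content and length. COX8A (ENSG00000176340, chr11:63974607-63976543, hg38), the ubiquitous form of subunit 8, a small membrane protein, was at 285, 230.4 and 241 FPKM in mimic samples, against 178, 168 and 123 FPKM in NC samples. All mimic samples were above all NC samples (0.70, SE 0.18, limma adjusted p = 0.0123). The call was kept in all 19 alternatives, with log2 fold changes of 0.54 to 1.20 and limma adjusted p as high as 0.0499. COX7B, a small membrane subunit encoded on chromosome X, was at 69.9, 54.95 and 46.0 FPKM in mimic samples, against 83.7, 82.4 and 70.4 FPKM in NC samples. The gap between the groups was narrow, with mimic sample 1 just below NC sample 3 (-0.48, SE 0.18, limma adjusted p = 0.0480). Its call was kept in 8 of the 19 alternatives. It was lost without mimic sample 2 (adjusted p = 0.123) or 3 (0.131), without NC sample 1 (0.137), 2 (0.126) or 3 (0.0512), and after rescaling over the tested genes (-0.16, adjusted p = 0.346). Further losses came without sample 3 of both groups (limma adjusted p = 0.0970) and after correction for GC content and length (0.0956). The call was also lost with no filter on low values (0.091) and at a mean of at least 5 FPKM (0.0532).

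COX6A1, the common form of subunit 6A, had the highest mean level in complex IV. It was at 355, 347 and 344 FPKM in mimic samples and 403, 388 and 337 FPKM in NC samples, which overlapped (-0.11, SE 0.14, limma adjusted p = 0.569). COX4I1 and COX5A, a pair that docks on the mitochondrially encoded core, gave 0.12 (SE 0.21) and 0.13 (SE 0.16), and COX7A2, the common form of subunit 7A, gave -0.15 (SE 0.28). COX6B1, which lies on the intermembrane-space side, was at 139, 86.6 and 81.2 FPKM in mimic samples and 174, 130.2 and 141 FPKM in NC samples. Mimic sample 1 overlapped the NC range (-0.56, SE 0.22, limma adjusted p = 0.0652). The gene was called lower after quantile normalization (-0.64, adjusted p = 0.0197), when mitochondrial genes did not count towards the total (-0.54, adjusted p = 0.0333), and also without mimic sample 1 (-0.81, adjusted p = 0.00399), and its value was -0.24 after rescaling over the tested genes. COX7A2L, a factor that joins complexes III and IV into supercomplexes and not a standing subunit, was at 45.4, 40.6 and 38.6 FPKM in mimic samples and at 48.4, 26.4 and 18.2 FPKM in NC samples. The NC samples were widely spread there and NC sample 1 was the highest of the 6 (0.53, SE 0.32, limma adjusted p = 0.197). COX5B, COX6C and COX7C, further small subunits, gave between -0.31 and -0.07 with overlap. After rescaling over the tested genes COX8A (1.03), COX7A2L (0.85) and COX5A (0.45) were called higher and 0 lower by limma, also at an unadjusted p below 0.05.

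The tissue-restricted isoforms of complex IV were near or at 0. COX4I2, known from lung, COX6A2, the heart and muscle form, and COX7B2, known from testis, were listed at 0 in all 6 samples. COX7A1, the heart and muscle form of subunit 7A, did not exceed 0.00302 FPKM in mimic samples or 0.135 FPKM in NC samples, and COX8C, known from testis, did not exceed 0.305 or 0.322 FPKM. COX6B2, the testis form of subunit 6B, was at 0, 0.0964 and 0.0854 FPKM in mimic samples, against 0.723, 0.842 and 0.997 FPKM in NC samples. All NC samples were above all mimic samples, but its mean was below the level for testing. With no filter on low values it was the 1 gene called lower by limma among 14 of complex IV. In that fit 8755 of all 35796 genes were called lower. Muscle markers were present at low levels as given above, with TNNT1 at 10.9 to 13.8 FPKM in mimic samples and 16.9 to 22.9 FPKM in NC samples.

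Complex V showed the widest spread, with 5 of 17 tested genes higher, 2 lower and a median log2 fold change of -0.00. Of all tested genes 12.0% were higher and 39.6% lower. The table uses older symbols, which are given once beside the current ones. ATP5PB (ATP5F1 in the table, ENSG00000116459, chr1:111448864-111462773, hg38), subunit b of the peripheral stalk that keeps the catalytic head from turning, was at 118, 74.6 and 65.0 FPKM in mimic samples, against 38.5, 29.4 and 28.4 FPKM in NC samples. The lowest mimic sample was well above the highest NC sample (1.37, SE 0.23, limma adjusted p = 0.00171). The other stalk genes did not follow it. ATP5PD (ATP5H), subunit d, was at 232, 179 and 175 FPKM in mimic samples and 212, 205 and 169 FPKM in NC samples, which overlapped (-0.00, SE 0.17, limma adjusted p = 0.991). ATP5PO (ATP5O), the oligomycin sensitivity-conferring protein, gave -0.15 (SE 0.21) with overlap. ATP5PF (ATP5J), coupling factor 6, was at 102, 95.8 and 110.3 FPKM in mimic samples and 125, 126 and 130.4 FPKM in NC samples. It stood apart downward without passing the test (-0.31, SE 0.13, limma adjusted p = 0.0714).

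The 3 genes for subunit c encode the same mature protein, which forms the turning ring, behind different import signals. ATP5MC1 (ATP5G1, ENSG00000159199, chr17:48892765-48895871, hg38) was at 165, 114 and 98.7 FPKM in mimic samples, against 61.4, 60.8 and 52.7 FPKM in NC samples. The groups were far apart and mimic sample 1 was the highest (1.07, SE 0.20, limma adjusted p = 0.00256). ATP5MC3 (ATP5G3) was at 39.0, 31.3 and 27.4 FPKM in mimic samples, against 22.6, 26.4 and 18.7 FPKM in NC samples. It rose by a small margin (0.52, SE 0.18, limma adjusted p = 0.0410), and the call was lost without mimic sample 1 (adjusted p = 0.0985) or 2 (0.0877) and without NC sample 1 (0.0906) or 3 (0.127). The call was also lost without sample 3 of both groups (limma adjusted p = 0.0658). ATP5MC2 (ATP5G2), the most abundant of the 3, was at 139, 204 and 142 FPKM in mimic samples and 133, 139 and 107 FPKM in NC samples. Its groups stood apart by less than 1 FPKM, without passing the test (0.34, SE 0.19, limma adjusted p = 0.171).

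Together the subunit c genes summed to 343, 349 and 268 FPKM in mimic samples, against 217, 227 and 178 FPKM in NC samples. ATP5MC1 made up 48.0%, 32.7% and 36.8% of that sum in mimic samples and 28.3%, 26.9% and 29.5% in NC samples. ATP5MC2 made up 40.6%, 58.4% and 52.9% in mimic samples and 61.3%, 61.5% and 60.0% in NC samples. The share of ATP5MC1 was thus higher, and that of ATP5MC2 lower, in each mimic sample than in any NC sample, while the shares within the mimic group spread more widely.

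Among the genes of the catalytic F1 head, 1 rose and 1 fell. ATP5F1D (ATP5D), subunit delta of the central stalk, was at 67.2, 44.8 and 31.9 FPKM in mimic samples, against 34.4, 19.9 and 15.9 FPKM in NC samples. Both groups were widely spread, sample 1 being highest in each, and NC sample 1 lay above mimic sample 3 (1.03, SE 0.34, limma adjusted p = 0.0366). Its call was lost without mimic sample 1 (adjusted p = 0.116) or 2 (0.0798) and without NC sample 2 (0.1002) or 3 (0.119). With the shared sample numbers fitted as a block it was called (limma adjusted p = 0.000998). ATP5F1C (ATP5C1), subunit gamma, the shaft that turns within the head, was at 129, 119 and 108 FPKM in mimic samples, against 173, 174 and 182 FPKM in NC samples. The groups were clearly apart and the NC samples close together (-0.57, SE 0.13, limma adjusted p = 0.00782). After rescaling over the tested genes its value was -0.25 (adjusted p = 0.0930), and after correction for GC content and length it was -0.29 (adjusted p = 0.0859).

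ATP5F1B (ATP5B), the catalytic beta subunit, was at 377, 260.0 and 229 FPKM in mimic samples and at 209.6, 226 and 113 FPKM in NC samples. All mimic samples were above all NC samples, but the spread within groups was large (0.69, SE 0.30, limma adjusted p = 0.0881), and the gene was called when mitochondrial genes did not count towards the total (adjusted p = 0.0429). ATP5F1A (ATP5A1), the alpha subunit, was at 104, 118 and 91.0 FPKM in mimic samples and at 104, 108 and 71.3 FPKM in NC samples, which overlapped (0.16, SE 0.19, limma adjusted p = 0.517). ATP5F1E (ATP5E), subunit epsilon, gave -0.46 (SE 0.24) with overlap.

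The membrane subunits e, f and g, which shape the dimers that bend the inner membrane, gave between -0.37 and -0.15, and 0 of 3 passed the limma test, also at an unadjusted p below 0.05. ATP5MF (ATP5J2), subunit f, had the highest mean level of all members. It was at 382, 359 and 317 FPKM in mimic samples and 502, 464 and 400.0 FPKM in NC samples. Every mimic sample was below every NC sample (-0.37, SE 0.16, limma adjusted p = 0.0875). The gene was called lower after quantile normalization (-0.48, adjusted p = 0.00921), when mitochondrial genes did not count towards the total (-0.34, adjusted p = 0.0267), and without mimic sample 1 (-0.43, adjusted p = 0.0480), and after rescaling over the tested genes its value was -0.042. ATP5ME (ATP5I) and ATP5MG (ATP5L), subunits e and g, overlapped.

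The name rule also took genes that are not subunits. DMAC2 (ATP5SL), an assembly factor of complex I, was at 20.9, 16.5 and 24.1 FPKM in mimic samples, against 11.5, 13.95 and 10.2 FPKM in NC samples. It rose without overlap (0.76, SE 0.18, limma adjusted p = 0.00843). DMAC2L (ATP5S), once named as a coupling factor, was at 2.59, 3.24 and 2.22 FPKM in mimic samples, against 5.34, 4.02 and 4.70 FPKM in NC samples. It fell without overlap (-0.71, SE 0.17, limma adjusted p = 0.00953) and was not called after quantile normalization (-0.17, adjusted p = 0.376). DMAC2L was also not called without sample 3 of both groups (-0.59, limma adjusted p = 0.0692). ATP5MGL (ATP5L2), a gene copy, and ATP5MFP1 (ATP5J2LP), a processed pseudogene whose older name escaped the rule, did not exceed 0.0210 FPKM in mimic samples or 0.147 FPKM in NC samples. After rescaling over the tested genes ATP5PB (1.69), ATP5MC1 (1.40), ATP5F1D (1.35), DMAC2 (1.07), ATP5F1B (1.01), ATP5MC3 (0.84), ATP5MC2 (0.66) and ATP5F1A (0.48) were called higher and DMAC2L (-0.43) lower.

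Because FPKM are relative, ratios between members within a sample were also taken; such a ratio is the same under any rescaling of whole samples. The pairs were chosen after their values were seen, so the ratios are a description. SDHA was 1.91, 2.18 and 2.22 times SDHD in mimic samples and 1.57, 1.53 and 1.29 times in NC samples. In complex V the ratio of ATP5F1B to ATP5F1C was 2.91, 2.19 and 2.11 in mimic samples and 1.21, 1.3 and 0.619 in NC samples. The ratio of ATP5PB to ATP5PD was 0.510, 0.416 and 0.372 in mimic samples and 0.182, 0.144 and 0.168 in NC samples. The ratio of COX8A to COX7B was 4.08, 4.19 and 5.24 in mimic samples and 2.13, 2.04 and 1.75 in NC samples. In complex III the ratio of CYC1 to UQCRB was 3.78, 2.85 and 3.48 in mimic samples and 2.07, 1.87 and 1.78 in NC samples. For each of these pairs every mimic sample was above every NC sample, which the choice of the pairs favoured.

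**Figure D3:**
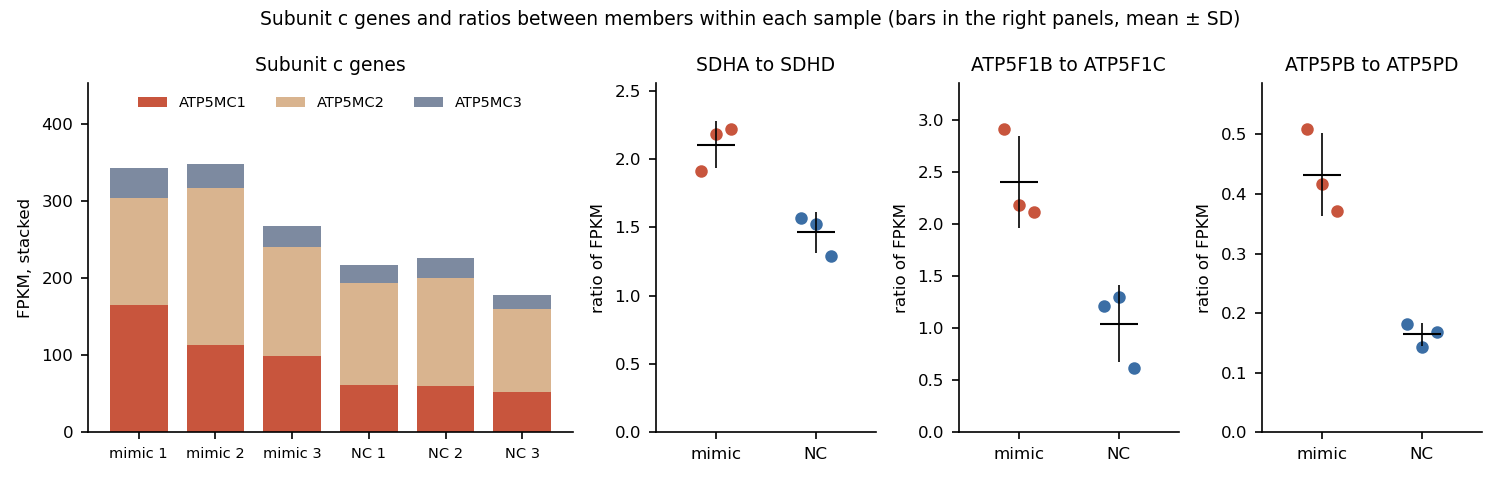
Left, FPKM of the 3 subunit c genes stacked in each sample; right, ratios of FPKM between pairs of members within each mimic and negative control (NC) sample, with mean and SD. ATP5MC1 fills 32.7% to 48.0% of the column in mimic samples and 26.9% to 29.5% in NC samples, and the ATP5PB to ATP5PD ratio lies at 0.372 or more in mimic samples and at 0.182 or less in NC samples.

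Summed over all members, the level was 5303, 4202 and 3786 FPKM in mimic samples and 4686, 4454 and 3581 FPKM in NC samples. The sums overlapped, with sample 1 highest and sample 3 lowest in both groups, opposite to the mitochondrial share given above. The sums of complexes III, IV and V overlapped too, and that of complex II did not. The 90 pseudogenes named after members summed to 18.2, 14.3 and 13.5 FPKM in mimic samples and to 26.3, 25.4 and 22.1 FPKM in NC samples. Each mimic sum was below each NC sum, and the pseudogenes made up 0.344%, 0.341% and 0.356% of the member sum in mimic samples and 0.560%, 0.570% and 0.616% in NC samples. The most abundant of them, COX6A1P2, was at 4.16, 4.12 and 3.79 FPKM in mimic samples and 9.54, 8.17 and 7.06 FPKM in NC samples, without overlap. The next, UQCRFS1P1, was at 6.21, 4.72 and 4.08 FPKM in mimic samples and 5.05, 4.79 and 3.05 FPKM in NC samples, which overlapped, as did ATP5G1P4 and COX7CP1.

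**Figure D4:**
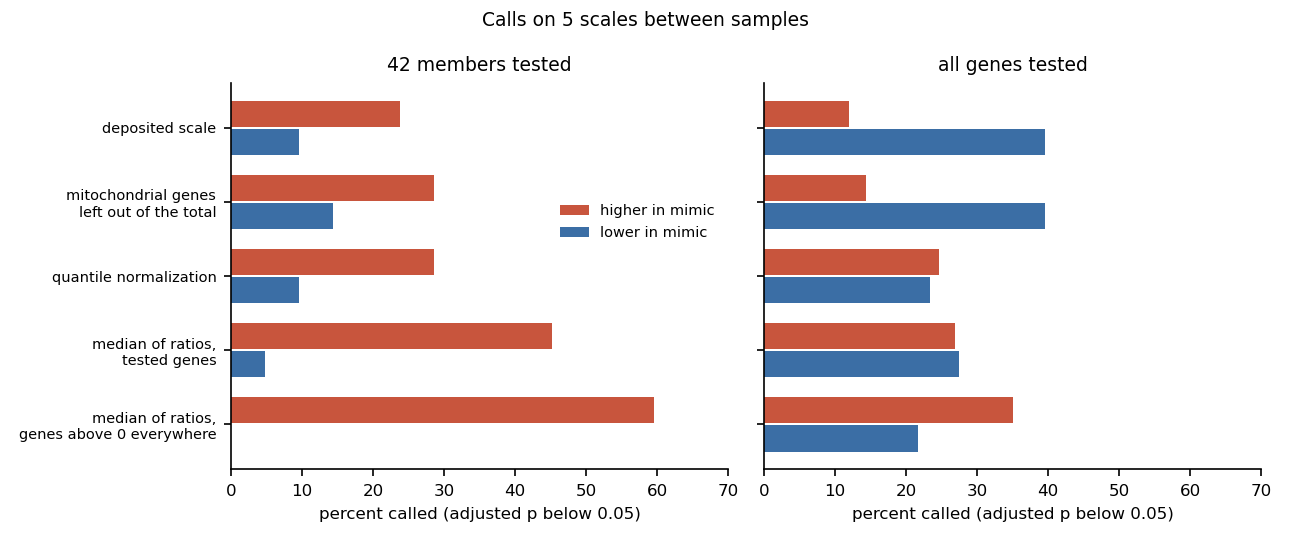
Percent of genes called higher or lower in mimic samples under 5 scalings of the samples, for the 42 tested members (left) and for all tested genes (right). Higher calls make up 23.8% of members on the deposited scale and 59.5% with median-of-ratios scaling over genes above 0 everywhere, where the shares of all genes are 12.0% and 35.0%.

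The direction of members near 0 depended on this choice of scale. With the median of ratios taken over genes above 0 in every sample, the median of all genes was 0.17, 25 members rose and 0 fell by limma, against 35.0% and 21.6% of all genes, with 1 of them, UQCRHL (-0.45), lower at an unadjusted p below 0.05. The 6 members added to the 19 were UQCRC1 (0.66), UQCRC2 (0.47), UQCRB (0.27), COX6A1 (0.39), COX4I1 (0.62) and ATP5PD (0.50), and UQCRC2, UQCRB, COX6A1 and ATP5PD were below 0 on the deposited scale.

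Fold changes of the members varied with base composition. Across the 42 members the log2 fold change correlated with GC content (Pearson r = 0.42, Spearman rho = 0.41), as a description over genes that share the same 6 libraries. Members that rose had a median GC content of 53.6%, those that fell 43.4% and those not called 47.1%. The correlation with log2 transcript length was 0.13 and that with log2 mean FPKM 0.10. After correction for GC content and length over all genes, 8 members rose and 2 fell (19% and 4.76%), against 9.87% and 38.8% of all genes. Of the 10 that rose on the deposited scale 7 were still called, and SDHC was called in addition. SDHA (0.41, adjusted p = 0.0569), CYC1 (0.26, adjusted p = 0.138) and ATP5F1D (0.66, adjusted p = 0.111) were not called there, with smaller log2 fold changes than the 0.61, 0.59 and 1.03 on the deposited scale. Of the members that fell, COX7B (-0.42, limma adjusted p = 0.0956) and ATP5F1C (-0.29, limma adjusted p = 0.0859) were not called there either.

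Promoters of these genes are known for sites of the regulators NRF1, GABP and YY1. Promoter windows of RefSeq (GRCh38.p14), from 250 bases before to 50 after each gene start, matched 36 of the 51 members, 32 of them tested. The letters CCGGAAG, the core bound by GABP and other ETS factors, were found on either strand in 14 of the 32 (43.8%), against 17.5% of 14513 promoters of tested genes. The YY1 motif AAGATGGCG was found on either strand in 3 of the 32 (9.38%) against 3.56%, and TATAAA in 3 (9.38%) against 6.35%. The palindromic NRF1 motif was found in 2 of the 32 (6.25%) against 2.01%, in 0 of the 7 promoters of genes that rose and in 1 of the 2 of genes that fell, that of ATP5F1C. The SDHB window held both CCGGAAG and AAGATGGCG. The CCGGAAG motif was present in 3 of the 7 promoters of genes that rose and in 0 of the 2 promoters of genes that fell. The members with it had a median log2 fold change of -0.09 and those without it 0.14. The windows of the 3 that rose are shown as examples of this motif, 5′ to 3′ on the gene's strand, with the motif or its complement in capitals.

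SDHB, chr1:17054144-17054170, minus strand: acccgggaaaCCGGAAGccgcctccca

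COX8A, chr11:63974592-63974618, plus strand: agctccagaaCTTCCGGccagcgcagc

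UQCR11, chr19:1605563-1605589, minus strand: ccaaccctcgCCGGAAGttactgtaag

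UQCR11, chr19:1605543-1605569, minus strand: ctgtaagtggCTTCCGGgtctgcgcgc

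The regulators themselves gave 1 higher and 4 lower calls among 12 tested genes of mitochondrial biogenesis, beside 12.0% higher and 39.6% lower over all genes. After rescaling over the tested genes they gave 3 higher and 2 lower calls, as they did after quantile normalization. PPARGC1A, the coactivator that drives oxidative metabolism in liver, was at 2.82, 3.85 and 4.05 FPKM in mimic samples, against 8.599, 8.73 and 9.13 FPKM in NC samples. It fell without overlap (-1.21, SE 0.16, limma adjusted p = 0.000441), and the fall was called after rescaling over the tested genes (-0.91). GABPB2, a beta subunit of GABP, fell (-0.91, SE 0.14, limma adjusted p = 0.00101), and TFB2M, a mitochondrial transcription factor, rose (0.57, SE 0.14, limma adjusted p = 0.00839).

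The neighbouring parts of the pathway were counted in the same way. Over all tested genes 12.0% rose and 39.6% fell, or 26.9% and 27.4% after rescaling over the tested genes. Of 38 nuclear complex I genes 5 rose and 4 fell, with a median of 0.06, or 14 and 2 after rescaling over the tested genes; NDUFA11 rose (1.13, SE 0.18) and NDUFB1 (-0.87, SE 0.15) and NDUFV2 (-0.91, SE 0.16) fell. Assembly factors were counted for each complex. For complex II, 1 of 4 rose (SDHAF2, 0.63) and 2 fell (SDHAF4, -1.01, and SDHAF3, -0.46), and for complex III, 3 of 6 fell (TTC19, -1.02, LYRM7, -1.01, and UQCC1, -0.53). For complex IV, 4 of 26 identifiers rose, 2 of them both named SCO2, and 8 fell, among them COA5 (-1.24), CMC1 (-0.999) and COA1 (-0.91), and for complex V, the assembly factor TMEM70 (-0.99) fell in a list of 6 that also holds subunits under other names and the inhibitor ATPIF1. In these assembly lists 0 genes of complexes III and V rose by limma, also at an unadjusted p below 0.05. After rescaling over the tested genes these counts were 2 higher and 1 lower, 1 and 2, 7 and 5, and 0 and 1 in the same order. Among 4 electron carriers ETFDH (-0.43) fell, and CYCS, cytochrome c itself, did not pass the test (-0.28, limma adjusted p = 0.237), while after rescaling over the tested genes 2 rose.

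Of the 6 mitochondrially encoded subunits of complexes III to V, MT-ATP8 rose (3.36, SE 0.79, limma adjusted p = 0.0106), and MT-CYB (1.07, adjusted p = 0.0845) and MT-ATP6 (0.57, adjusted p = 0.357) did not pass the test. MT-ATP8 overlaps MT-ATP6 in the genome, so the division of reads between them is uncertain. The mitochondrial share varied within each group, as given above, and its part in the nuclear values was not tested. When mitochondrial genes did not count towards the total, 12 members rose and 6 fell (28.6% and 14.3%), against 14.4% and 39.5% of all genes.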

How the data were processed

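RNA-seq tables of 6 samples, 3 mimic and 3 NC, grouped by the treatment label, were used. Per the file headers, the authors deposited FPKM for each gene and sample, and the 6 single tables held the same values as the table of the whole series. The submitters' processing notes name FastQC, HISAT2 and hg38. Tool versions, the FPKM program, its strand setting and its annotation were not given in the sources used here. These FPKM were tested with limma 3.58.1 in R 4.3.3 (trend and robust moderation, no covariates) on log2(FPKM + 0.5) over genes whose mean reached 1 FPKM, with Benjamini-Hochberg adjustment at 0.05. Fold changes on that scale understate the change of low genes. The step was also run on simulated independent values with fewer changed genes than were called here. No result rests on that run. No count test was run because the files hold FPKM. FPKM multiplied by transcript length piled up at 1 shared value in each sample, taken as 1 fragment, but at a tolerance of 1% only 15.0% to 22.0% of low values were whole, so reads were not recovered and no counting interval is given. A value of 0 means that the gene is listed at 0.

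Of the identifiers, 57836 matched GENCODE 29 and 57392 the symbol table, which gave current names. Members, lists and tests were chosen with earlier results of these data known. The text names members past the test on the deposited scale or after median-of-ratios scaling, the most abundant member of each complex, isoform sets, members below the filter, and up to 3 genes with the smallest p of each other list; further members are named for completeness and were chosen after their values were seen. The 19 alternatives were other scalings, pseudocounts of 0.1 and 1, no filter or a mean of 5 FPKM, a replicate block, GC and length correction, moderation without robustness, and samples left out.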

Additional observations from a re-analysis of the deposited data

How the results depend on the processing

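The count of members called higher was 10 as deposited, 25 after median-of-ratios scaling and 19 with that scaling over tested genes, and the count called lower was 4, against 0 and 2 under these scalings, 1 (mean of at least 5 FPKM) and 2 (GC and length correction). With no filter on low values 7 of 48 members were called higher, and UQCR11, ATP5F1D and ATP5MC3 lost their calls. Over all 35796 genes of that fit 1530 were called higher and 8755 lower. Leaving samples out gave 4 to 10 higher (4 without NC sample 3, 5 without mimic sample 2, 6 without sample 3 of both groups) and 2 to 10 lower (10 without mimic sample 1, 2 without sample 3 of both groups). Over all 14439 genes the same fits called 1256 to 1822 higher and 4601 to 5732 lower, beside 1735 and 5718 with every sample kept. Higher calls there were 1256 (NC sample 3 dropped), 1261 (mimic sample 2 dropped) and 1327 (each sample 3 dropped). Lower calls there were 5732 with mimic sample 1 dropped and 4601 with each sample 3 dropped. Without mimic sample 1, UQCRQ, COX6B1, COX7C, ATP5MF, ATP5ME and ATP5F1E were called lower, which they were not with it. Over all genes, higher calls numbered 1735, against 5059 (median of ratios), 3889 (over tested genes) and 3546 (quantile), and lower calls 5718, against 3120, 3369 (quantile), 8755 (no filter) and 2916 (mean of at least 5 FPKM). The medians of complexes II to V were 0.88, 0.55, 0.39 and 0.50 after median-of-ratios scaling and 0.71, 0.37, 0.22 and 0.32 over tested genes. Under both scalings complexes IV and V turned, from -0.11 and -0.0027 as deposited. Quantile normalization turned complex III from 0.051 to -0.017. With GC content and length corrected for, the medians of complexes II to V were 0.40, 0.096, 0.090 and 0.041. With samples left out they ranged from 0.31 to 0.45, -0.083 to 0.22, -0.36 to 0.025 and -0.13 to 0.071.

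Samples shared replicate numbers. Same-numbered deviations correlated at 0.177, -0.0467 and 0.223, and mimic sample 2 did not correlate best with its own number, so the numbers were not taken to pair the samples. With the replicate block 12 members were higher and 8 lower, and 2117 and 5994 of all genes (14.7% and 41.5%). The block added UQCRFS1 and ATP5F1B to the members called higher, and COX6B1, ATP5MF, ATP5PF and ATP5F1E to those called lower. MT-CYB and MT-ATP6 were also called higher with it.

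Signs that turned were mostly those of genes not called. Among members and the genes named from other lists, after median-of-ratios scaling they were UQCRH 0.34, UQCRQ 0.29, UQCRC2 0.47, UQCRB 0.27, COX6A1 0.39, COX5B 0.43, COX7C 0.20, COX7B 0.014, COX6C 0.19, COX7A2 0.34, ATP5MF 0.13, ATP5PD 0.50, ATP5PF 0.19, ATP5PO 0.34, ATP5ME 0.13, ATP5MG 0.34, ATP5F1E 0.037, SDHAF3 0.026, ATPIF1 0.15, ETFDH 0.051 and CYCS 0.22, of which COX7B, SDHAF3 and ETFDH had been called lower. Among the other genes of those lists, NDUFA10 (0.12), FASTKD3 (0.11), COX20 (0.047) and NRF1 (0.050) had also been called lower and turned. Over tested genes they were UQCRH 0.17, UQCRQ 0.12, UQCRC2 0.29, UQCRB 0.10, COX6A1 0.22, COX5B 0.26, COX7C 0.028, COX6C 0.013, COX7A2 0.17, ATP5PD 0.32, ATP5PF 0.013, ATP5PO 0.17, ATP5MG 0.17 and CYCS 0.043. After GC and length correction, with or without the block, they were UQCRH 0.16, UQCRC1 -0.10, UQCRB 0.030, COX6A1 0.16, COX5B 0.090, COX4I1 -0.047, COX7A2 0.20 and ATP5MG 0.041, and without mitochondrial genes ATP5PD 0.020. Leaving samples out turned 11 members near 0: SDHD (-0.061 to 0.20), UQCRH (-0.41 to 0.038), UQCRC1 (-0.044 to 0.32), UQCR10 (-0.0047 to 0.25), UQCRC2 (-0.15 to 0.18), COX5B (-0.36 to 0.16), COX4I1 (-0.091 to 0.27), COX7A2 (-0.44 to 0.025), ATP5PD (-0.13 to 0.071), ATP5F1A (-0.032 to 0.27) and ATP5PO (-0.33 to 0.057). ATP5PB, ATP5MC1 and COX8A kept their calls in all 19 alternatives, with a highest limma adjusted p of 0.0114, 0.0113 and 0.0499. The causes were not tested.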
